A study of Sus scrofa with 10 samples.

Results

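The genes described here encode enzymes that break down tyrosine (TAT, HPD, HGD and FAH), lysine (AASS and GCDH) and histidine (HAL) in the liver. They were taken by symbol from the deposited table of expression values, where each of the 7 symbols had a single row among 31905 genes. RNA sequencing was done on livers of pigs (Sus scrofa), all labelled wild type, in a study of liver failure after removal of part of the liver (post-hepatectomy liver failure). A bioartificial liver passes blood over liver cells held in an external device. Normal liver on day 0 (Control) gave 3 libraries, and liver failure with no device on day 2 (NoBAL) gave 2. Liver failure with the device but no cells in it on day 3 (EmptyBAL), a control for the passage of blood, gave 2. The device filled with human induced hepatocytes, which are hepatocyte-like cells made from another human cell type, gave 1 library on day 4 (hiHepD4) and 2 on day 8 (hiHepD8). Strain, age and the extent of the resection are not stated in the labels, and each group was sampled on its own day, so treatment and time cannot be told apart.

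Surplus amino acids are broken down mainly in hepatocytes, and their carbon enters energy metabolism or glucose synthesis. Tyrosine, which hepatocytes also make from phenylalanine, is first transaminated by TAT. HPD then forms homogentisate, HGD opens its ring, and FAH completes the path to fumarate and acetoacetate. Loss of FAH causes hereditary tyrosinaemia, and loss of HGD causes alkaptonuria. AASS starts the main route of lysine breakdown in mitochondria, and GCDH, the enzyme missing in glutaric aciduria, acts further down on glutaryl-CoA from lysine and tryptophan. HAL removes ammonia from histidine to give urocanate. TAT is a classic example of a liver gene induced by glucocorticoids and glucagon.

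Values are FPKM (fragments for each kilobase of a gene, corrected for the library's total fragments), so levels can be compared between genes per length. The depth behind them is unknown, and the summed FPKM of a library ranged from 439925 to 829970. Libraries of a group were unequally alike. Pearson correlation of log2(FPKM + 1) was 0.992 to 0.994 within Control and 0.992 within hiHepD8, but 0.956 within NoBAL and 0.893 within EmptyBAL. All 7 genes were higher in NoBAL replicate 1 than in replicate 2, by up to 3.99-fold, and all 7 were lower in EmptyBAL replicate 1 than in replicate 2, by up to 15.5-fold. Between the hiHepD8 libraries no member differed by more than 1.03-fold. Whether the libraries of a group were taken from different animals is not stated, so the p-values cover library-to-library spread, which may be technical.

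Hepatocyte-defining genes (ALB, TTR, APOA1, APOB, TF, SERPINA1 and HNF4A) were all detected. Their summed level was 81242 to 83837 FPKM in Control, against 14467 and 15225 in NoBAL, 3598 and 6695 in EmptyBAL, 23457 for hiHepD4, and 20872 and 20946 for hiHepD8. ALB alone was at 52275 to 55098 FPKM in Control, so it makes up most of the Control sum. Of the 7 markers, 5 fell in NoBAL and 7 in EmptyBAL against Control, and 3 were lower in hiHepD8 (limma adjusted p under 0.05). Of all genes tested, 24.2%, 29.3% and 17.1% were lower in these comparisons. TTR was at 8112 to 9062 FPKM in Control and 385 and 395 in hiHepD8. HNF4A was at 105 to 112 FPKM in Control and 118 and 119 in hiHepD8. In bulk tissue, fewer hepatocytes and less of these RNAs per hepatocyte cannot be told apart. Macrophage markers, all 7 measured, summed to 246 to 274 FPKM in Control, against 85.1 and 90.6 in NoBAL, 594 and 736 in EmptyBAL, 162 for hiHepD4, and 262 and 266 for hiHepD8. C1QA and C1QB make up most of this sum in Control and hiHepD8, but not in NoBAL or hiHepD4. In EmptyBAL replicate 1 the largest part was MARCO, at 179 FPKM. The 7 genes did not go one way. Against Control 3 fell and 0 rose in NoBAL, 5 rose and 0 fell in EmptyBAL, and 3 were higher and 1 lower in hiHepD8. Of all genes, 24.2% fell and 25.2% rose in NoBAL, and 24.4% rose and 29.3% fell in EmptyBAL. In hiHepD8 15.1% were higher and 17.1% lower. Neutrophil markers (S100A8, S100A12 and CSF3R, 3 of 5 listed) summed to 0.327 to 1.19 FPKM in Control and 0.694 and 0.97 in hiHepD8, where S100A8 or S100A12 was at 0 in some libraries. They were at 26.2 and 233 in NoBAL, 100.5 and 626 in EmptyBAL, and 65.4 in hiHepD4. Endothelial markers (4 of 5 listed) summed to 40.5 to 41.6 FPKM in Control and 39 in hiHepD4, with 97.6 and 97.7 in hiHepD8, 61.7 and 100.4 in NoBAL, and 42.6 and 136 in EmptyBAL. Stellate cell markers (all 4) summed to 271 to 304 FPKM in Control and 127 in hiHepD4, with 564 and 829 in NoBAL, 461 and 670 in EmptyBAL and 505 and 508 in hiHepD8. ACTA2 alone of these was lower in hiHepD8 (166 and 169 FPKM) than in Control (201 to 238). Cholangiocyte markers (3 of 4) were at 11.7 to 12.7 FPKM in Control and 15.9 in hiHepD4, with 25.9 and 27.2 in hiHepD8, 17.4 and 28.3 in NoBAL, and 95.5 and 118 in EmptyBAL. Markers of proliferating cells (3 of 4) were at 1.74 to 2.88 FPKM in Control and 1.84 and 2.58 in hiHepD8, but at 146 and 206 in NoBAL, 86.2 and 86.5 in EmptyBAL and 73.6 in hiHepD4. T and NK cell markers (all 4) summed to between 6.23 FPKM in NoBAL and 64.2 in EmptyBAL replicate 1, where NKG7 alone was at 53.4. In EmptyBAL CD3E was also above Control, CD2 overlapped it and CD3D was below it. The part of these cell types in the values below was not tested.

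On the pig assembly Sscrofa11.1, with positions from RefSeq matched by symbol, TAT (ENSSSCG00000002736) lies on chromosome 6 from 14571311 to 14583203. HPD (ENSSSCG00000009805) lies on chromosome 14 from 30845608 to 30857658, and HGD (ENSSSCG00000021227) on chromosome 13 from 139660315 to 139710402. FAH (ENSSSCG00000001780) lies on chromosome 7 from 49047833 to 49087790. AASS (ENSSSCG00000016613) spans chromosome 18 from 24938366 to 25039197, and GCDH (ENSSSCG00000013729) chromosome 2 from 66131154 to 66138963. HAL (ENSSSCG00000000892) lies on chromosome 5 from 87522483 to 87547489. GCDH shares 2301 bases with SYCE2, and HAL shares 18431 bases with the non-coding gene LOC110260790. Whether the libraries keep strand is not stated, so reads in these stretches cannot be assigned with certainty. SYCE2 itself did not exceed 2.43 FPKM in any library.

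In normal liver the order of levels was the same in all 3 libraries. HPD was the most abundant at 1062 ± 23.1 FPKM (SD, n = 3), followed by FAH at 308 ± 6.6, TAT at 242 ± 6.99 and HGD at 225 ± 3.65. GCDH followed at 166 ± 4.61, HAL at 48.6 ± 4.91 and AASS at 23.3 ± 0.199. On day 8 of the cell-filled device the order differed, with TAT and HPD at the top and AASS at the level of GCDH.

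**Figure D1:**
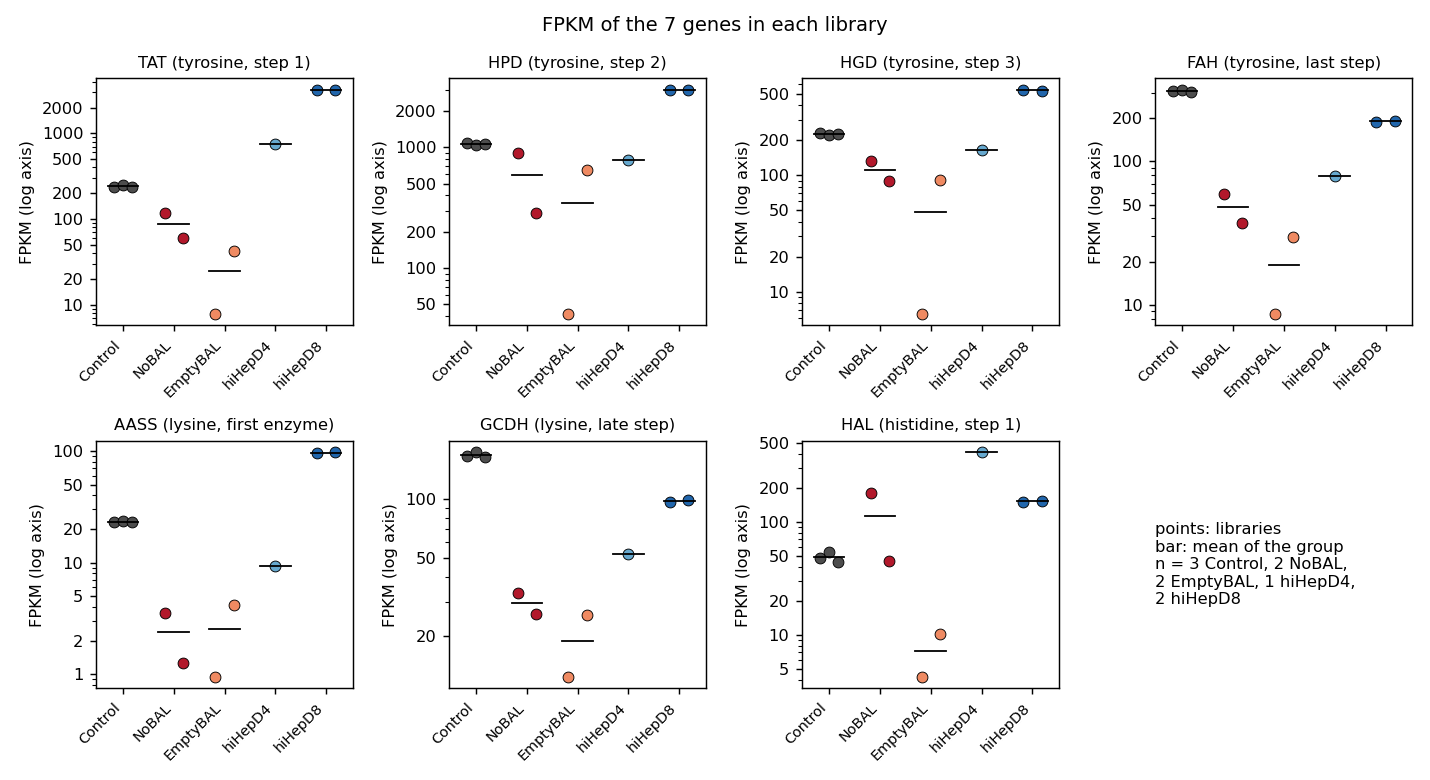
FPKM of each gene in each of the 10 libraries on a log axis, with a bar at the mean of each group. TAT, HPD, HGD and AASS are highest in hiHepD8, FAH and GCDH are highest in Control, and HAL is highest in hiHepD4.

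TAT, the gene of the aminotransferase that starts tyrosine breakdown, was at 238, 250.1 and 238 FPKM in Control. It was at 116 and 59.9 FPKM in NoBAL, 7.73 and 41.9 in EmptyBAL, 753 for hiHepD4, and 3236 and 3203 for hiHepD8. No library of any group overlapped another group, and the order from low to high was EmptyBAL, NoBAL, Control, hiHepD4 and hiHepD8. The widest gap between neighbours in that order was between hiHepD4 and hiHepD8, and the narrowest was between EmptyBAL and NoBAL.

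HPD, which encodes the dioxygenase that makes homogentisate, was at 1086, 1039 and 1062 FPKM in Control. It was at 896 and 284 FPKM in NoBAL, 41.5 and 645 in EmptyBAL, 781 for hiHepD4, and 2986 and 3013 for hiHepD8. NoBAL and EmptyBAL overlapped, the hiHepD4 library lay within the range of NoBAL, and hiHepD8 stood above every other library.

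HGD, the homogentisate dioxygenase gene, was at 229, 222 and 224 FPKM in Control. It was at 133 and 89.8 FPKM in NoBAL, 6.43 and 90.2 in EmptyBAL, 164 for hiHepD4, and 542 and 527 for hiHepD8. The order of its group means was that of HPD (EmptyBAL, NoBAL, hiHepD4, Control, hiHepD8). EmptyBAL replicate 2 lay just above NoBAL replicate 2, so those groups overlapped.

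FAH, the gene of the closing hydrolase, was at 307, 315 and 302 FPKM in Control. It was at 58.9 and 37.3 FPKM in NoBAL, 8.62 and 29.6 in EmptyBAL, 78.4 for hiHepD4, and 189 and 192 for hiHepD8. Unlike the other tyrosine genes, FAH stayed below every Control library in all other groups, and no groups overlapped.

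AASS, the entry enzyme of lysine breakdown, was at 23.1, 23.5 and 23.2 FPKM in Control. It was at 3.5 and 1.26 FPKM in NoBAL, 0.947 and 4.13 in EmptyBAL, 9.25 for hiHepD4, and 95.8 and 97 for hiHepD8. NoBAL and EmptyBAL overlapped, hiHepD4 lay between them and Control, and hiHepD8 lay above Control.

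GCDH, the glutaryl-CoA dehydrogenase gene, was at 164, 171 and 163 FPKM in Control. It was at 33 and 26 FPKM in NoBAL, 12.4 and 25.6 in EmptyBAL, 52.1 for hiHepD4, and 95.5 and 98.8 for hiHepD8. Like FAH it had its highest values in Control, and the gap between NoBAL replicate 2 and EmptyBAL replicate 2 was small.

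HAL, the histidine ammonia-lyase gene, was at 47.4, 54 and 44.4 FPKM in Control. It was at 179.7 and 45 FPKM in NoBAL, 4.25 and 10.1 in EmptyBAL, 410 for hiHepD4, and 151 and 153.5 for hiHepD8. NoBAL replicate 2 lay within the Control range while replicate 1 lay above hiHepD8. HAL alone among the 7 was highest on day 4.

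In liver failure without a device (NoBAL against Control), the late tyrosine gene FAH and both lysine genes fell, while the early tyrosine genes and HAL did not pass the test. Differences between these genes were not tested. GCDH was 5.63-fold lower by mean FPKM (log2 change -2.46 ± 0.28 SE on the log2(FPKM + 1) scale, which understates changes of low genes; limma adjusted p = 0.00032). FAH was 6.4-fold lower (-2.69 ± 0.44, adjusted p = 0.0018) and AASS 9.76-fold lower (-2.93 ± 0.42, adjusted p = 0.00093). Thus 3 of 7 genes fell and 0 rose, where 24.2% of all 12180 genes tested fell and 25.2% rose, 49.4% in all (a call being an adjusted p under 0.05, by Benjamini-Hochberg over all genes). The median change of the 7 was -1.53, against 0.04 over all genes and -2.22 over the 7 hepatocyte markers. Libraries of these groups did not overlap for 6 of the 7 genes, all but HAL, against 74.1% of all genes. TAT was 2.75-fold lower (-1.53 ± 0.60, adjusted p = 0.067), HGD 2.02-fold lower (adjusted p = 0.35) and HPD 1.8-fold lower (adjusted p = 0.41). HAL, 2.31-fold higher by mean, had an adjusted p of 0.21, and of 0.011 without NoBAL replicate 2, but its change turned to -0.10 without NoBAL replicate 1. When the Control and the hiHepD8 libraries, which resemble each other closely, were each averaged to 1 library, all 3 calls were lost. With only the 5 libraries of these groups in the fit limma called 5, TAT and HGD included, and 57.1% of all genes.

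In liver failure with the empty device (EmptyBAL against Control), every gene but HPD fell. FAH was 16.1-fold lower by mean FPKM (log2 change -4.17 ± 0.44, adjusted p = 0.00021), TAT 9.76-fold lower (-3.65 ± 0.60, adjusted p = 0.0017) and GCDH 8.74-fold lower (-3.14 ± 0.28, adjusted p = 9.9e-05). AASS was 9.16-fold lower (adjusted p = 0.00082), HAL 6.76-fold lower (adjusted p = 0.0044) and HGD 4.66-fold lower (log2 change -3.12, adjusted p = 0.017). HPD was 3.1-fold lower (log2 change -2.68) with an adjusted p of 0.054. Here and below the p-values belong to the log2 changes. For HGD and HPD, with unequal EmptyBAL libraries, these are larger than the folds by mean FPKM. Thus 6 of 7 genes fell and 0 rose, where 29.3% of all genes fell and 24.4% rose, 53.7% in all, and the median changes were -3.12 and -0.03. The groups did not overlap for any of the 7, nor for 72.7% of all genes. The hepatocyte markers also fell, by a median of -4.45. Without EmptyBAL replicate 2, HPD was called as well (-4.65, adjusted p = 0.00043), and without replicate 1 its change was -0.72. For HGD these changes were -4.93 and -1.31. GCDH alone was called with Control and hiHepD8 averaged (adjusted p = 0.049), and with only these groups in the fit HGD was not (adjusted p = 0.057).

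The empty device against no device (EmptyBAL against NoBAL) separated HAL most. HAL was 15.6-fold lower in EmptyBAL (log2 change -3.58 ± 0.60, adjusted p = 0.0063), TAT was 3.55-fold lower (-2.13 ± 0.66, adjusted p = 0.041) and FAH 2.52-fold lower (-1.48 ± 0.48, adjusted p = 0.048). Thus 3 of 7 genes fell and 0 rose, where 21.4% of all genes fell and 12.6% rose, 34.0% in all, with median changes of -1.61 and -0.14. The libraries did not overlap for 4 of the 7, against 59.0% of all genes. AASS, at 2.38 ± 1.58 FPKM in NoBAL and 2.54 ± 2.25 in EmptyBAL (SD, n = 2 each), differed by less than its spread (-0.01 ± 0.46, adjusted p = 0.98). GCDH, HGD and HPD were lower by 1.55-fold, 2.3-fold and 1.72-fold without passing the test (adjusted p = 0.12, 0.12 and 0.28). The TAT and FAH calls were lost without NoBAL replicate 1, without NoBAL replicate 2 or without EmptyBAL replicate 1 (adjusted p = 0.063 to 0.18), while 6 genes, and 54.8% of all genes, were called without EmptyBAL replicate 2. With only these 4 libraries in the fit limma called 0 of the 7 genes and 0 over all genes.

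By day 8 of the cell-filled device, all 7 genes were above EmptyBAL, and TAT, AASS, FAH and GCDH were above NoBAL. Against NoBAL, AASS was 40.4-fold higher (log2 change 4.93 ± 0.46, adjusted p = 0.00017) and TAT 36.6-fold higher (5.25 ± 0.66, adjusted p = 0.00062). The AASS fold rests on low NoBAL values (3.5 and 1.26 FPKM), near the filter of 1 FPKM, so its size depends on the library. FAH was 3.96-fold higher (2.00 ± 0.48, adjusted p = 0.011) and GCDH 3.3-fold higher (1.70 ± 0.31, adjusted p = 0.0033). Thus 4 of 7 genes were higher and 0 lower, where 22.5% of all genes were higher and 24.8% lower, 47.3% in all, and the median differences were 2.28 and -0.03, beside 0.51 over the hepatocyte markers. The libraries did not overlap for 6 of the 7, against 79.5% of all genes. HPD (5.08-fold, adjusted p = 0.091) and HGD (4.8-fold, adjusted p = 0.082) did not pass although their libraries did not overlap, and HAL (1.35-fold, adjusted p = 0.33) overlapped. HAL passed without NoBAL replicate 1 (adjusted p = 0.018), and its difference turned to -0.24 without NoBAL replicate 2. The FAH call was lost without NoBAL replicate 2 or without either hiHepD8 library (adjusted p = 0.058 to 0.065). AASS alone remained called with Control and hiHepD8 averaged (adjusted p = 0.047), and HPD and HGD joined with only these 4 libraries in the fit (adjusted p = 0.036 and 0.0065), which called 46.4% of all genes.

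Against EmptyBAL, TAT was 130-fold higher in hiHepD8 (log2 change 7.38 ± 0.66, adjusted p = 0.00023). AASS was 37.9-fold higher (adjusted p = 0.00026), HAL 21.2-fold (adjusted p = 0.0013), HGD 11.07-fold (adjusted p = 0.0089) and FAH 9.97-fold (adjusted p = 0.0014). The EmptyBAL values of AASS were likewise low (0.947 and 4.13 FPKM). HPD was 8.74-fold higher (adjusted p = 0.02) and GCDH 5.11-fold higher (adjusted p = 0.001). Thus 7 of 7 genes were higher, where 22.6% of all genes were higher and 17.6% lower, 40.2% in all, with median differences of 4.32 and 0.05, beside 1.93 over the hepatocyte markers. None of the 7 overlapped between these groups, which also holds for 71.5% of all genes. The sizes depended on the EmptyBAL library: without replicate 1 and without replicate 2 the log2 difference was 2.22 and 6.14 for HPD, 2.55 and 6.17 for HGD, and 6.23 and 8.53 for TAT. For all 7 genes it was lower without replicate 1. The calls of HPD and HGD were lost without either hiHepD8 library (adjusted p = 0.0505 to 0.088). With only these 4 libraries in the fit HPD and HGD were not called. The other 5 genes were, and 19.3% of all genes. With Control and hiHepD8 averaged, all 7 calls were lost.

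Set against normal liver, the genes of the entry enzymes of tyrosine and lysine breakdown were higher in hiHepD8. TAT was at 3219 ± 24 FPKM (SD, n = 2), 13.3-fold above Control (log2 change 3.73 ± 0.60, adjusted p = 0.0028), and AASS was at 96.4 ± 0.843 FPKM, 4.14-fold above it (2.01 ± 0.42, adjusted p = 0.0087). HPD (2.82-fold), HGD (2.37-fold) and HAL (3.13-fold) had higher values without passing the test (adjusted p = 0.3, 0.31 and 0.054). FAH, at 190.5 ± 1.85 FPKM, was at 0.618 and GCDH, at 97.2 ± 2.33 FPKM, at 0.585 times its Control mean, also without passing (adjusted p = 0.27 and 0.073). So 2 of 7 genes were higher and 0 lower, where 15.1% of all genes were higher and 17.1% lower, 32.2% in all, and the median differences were 1.497 and -0.017. Hepatocyte markers had a median change of -1.53 in this comparison.

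The groups did not overlap for any of the 7 genes, but neither did they for 80.0% of all genes. The standard errors of the shared fit also hold the spread of NoBAL and EmptyBAL. With only the Control and hiHepD8 libraries in the fit, all 7 genes were called, 5 higher and FAH and GCDH lower (adjusted p = 1.5e-08 to 7.99e-06), but so were 68.8% of all genes. With each of these groups averaged to 1 library, the calls of TAT and AASS in the shared fit were lost. AASS lost its call without either hiHepD8 library (adjusted p = 0.061 and 0.062).

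**Figure D2:**
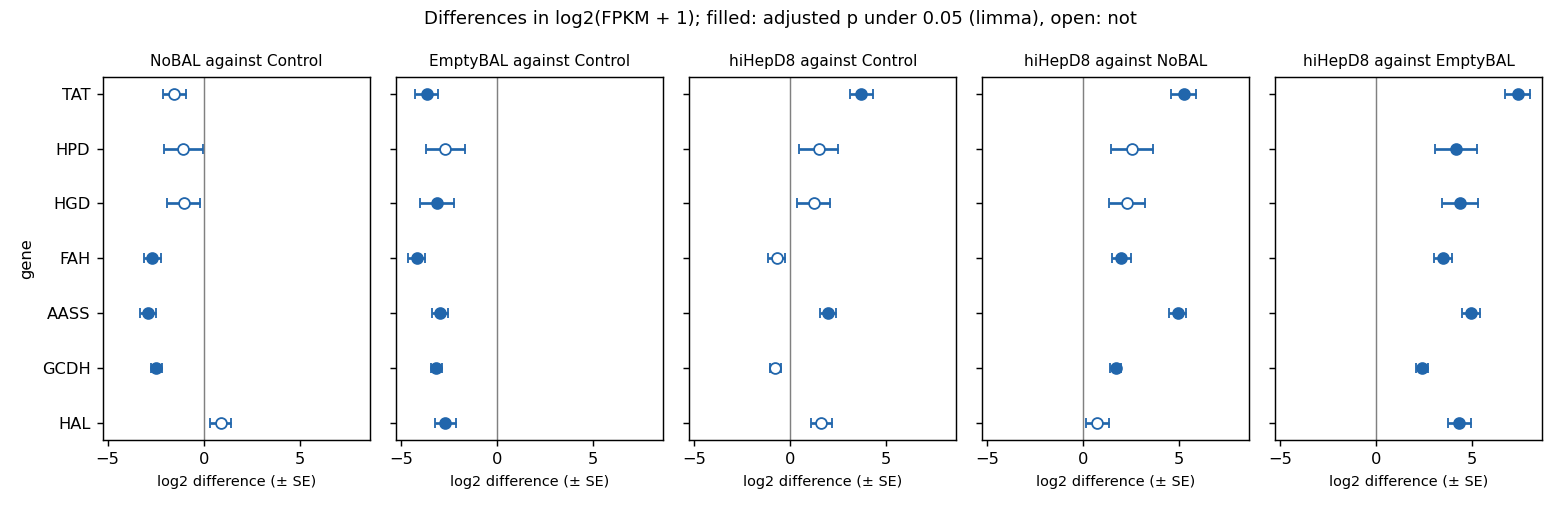
Differences in log2(FPKM + 1) with standard errors for each gene in 5 comparisons; filled points passed an adjusted p under 0.05 with limma. All 7 genes pass in hiHepD8 against EmptyBAL, and TAT and AASS pass in hiHepD8 against Control.

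The single day 4 library of the cell-filled device has no replicate and was not tested. HAL was at 8.45 and TAT at 3.11 times the Control mean in it. HPD was at 0.735, HGD at 0.727, AASS at 0.398, GCDH at 0.314 and FAH at 0.255 times the Control mean. For every gene but HPD the value lay above all NoBAL and EmptyBAL libraries. For every gene but HAL it lay below both hiHepD8 libraries.

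Ratios between genes of a path differed between libraries. Within a library, TAT stood to FAH as 0.777 to 0.794 in Control, against 1.97 and 1.6 in NoBAL, 0.897 and 1.42 in EmptyBAL, 9.6 for hiHepD4, and 17.1 and 16.7 for hiHepD8. HPD stood to FAH as 3.3 to 3.54 in Control and as 15.8 and 15.7 in hiHepD8. In NoBAL this ratio was 15.2 and 7.61, and in EmptyBAL 4.81 and 21.8. AASS stood to GCDH as 0.137 to 0.142 in Control, against 0.106 and 0.0486 in NoBAL, 0.0762 and 0.162 in EmptyBAL, 0.177 for hiHepD4, and 1.0 and 0.982 for hiHepD8. HGD stood to FAH as 0.705 to 0.747 in Control and as 2.86 and 2.75 in hiHepD8. In NoBAL this ratio was 2.25 and 2.41, in EmptyBAL 0.747 and 3.05, and in hiHepD4 2.09. The TAT and AASS ratios were thus highest in hiHepD8, whereas the HPD and HGD ratios were highest in EmptyBAL replicate 2. These ratios were not tested.

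**Figure D3:**
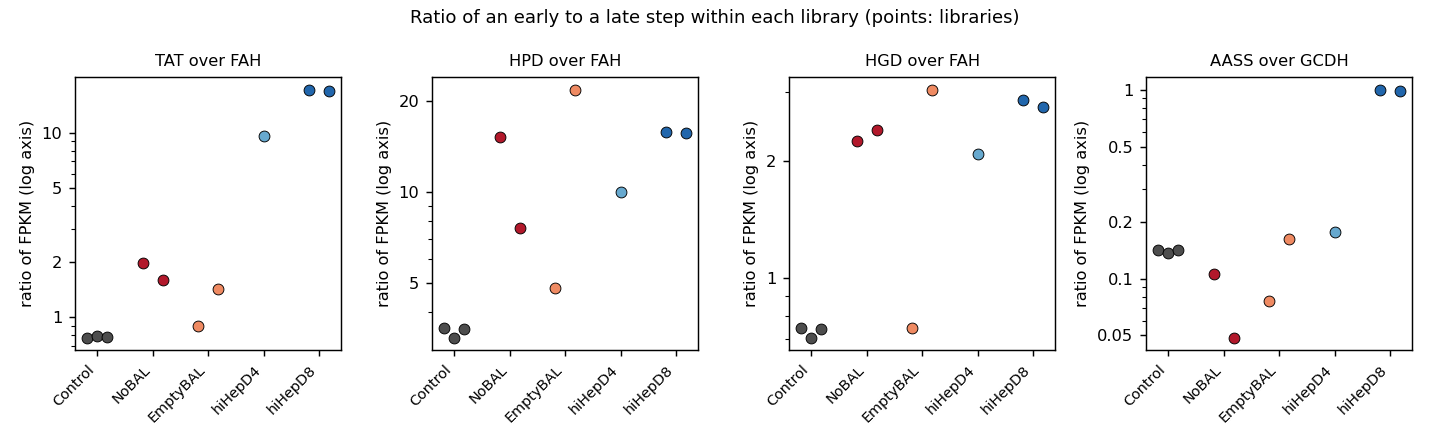
Ratio of the FPKM of an early to a late enzyme gene within each library, on log axes, with a point for each library. TAT over FAH is 16.7 and 17.1 in hiHepD8 against at most 0.794 in Control. AASS over GCDH is near 1.0 in hiHepD8 against at most 0.142 in Control. HPD over FAH and HGD over FAH are highest in EmptyBAL replicate 2.

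The members were also set against the median change of the 7 hepatocyte markers in the same library, as log2(FPKM + 1) minus the Control mean. These markers differed among themselves, from -4.48 for TTR to 0.12 for HNF4A in hiHepD8 replicate 1. TAT exceeded that median by 5.28 and 5.24 in hiHepD8, 2.64 in hiHepD4, 1.18 and 0.21 in NoBAL, and 0.28 and 1.23 in EmptyBAL. AASS exceeded it by 3.55 and 3.53 in hiHepD8 and by 1.44 and 1.49 in EmptyBAL, but lay below it in NoBAL at -0.20 and -1.21. In hiHepD4 AASS was at -0.24. FAH was at 0.85 and 0.83 in hiHepD8, -0.96 in hiHepD4, -0.14 and -0.80 in NoBAL, and 0.07 and 0.39 in EmptyBAL. GCDH was at 0.76 and 0.77 in hiHepD8, -0.65 in hiHepD4, -0.07 and -0.42 in NoBAL, and 1.44 and 1.08 in EmptyBAL. HPD exceeded the median by 3.04 and 3.02 in hiHepD8 and 0.56 in hiHepD4, and by 0.31 to 3.01 in the NoBAL and EmptyBAL libraries. HGD exceeded it by 2.81 and 2.74 in hiHepD8 and 0.55 in hiHepD4, and by 0.15 to 2.42 in the others. HAL exceeded it in every library outside Control, by 4.10 and 2.11 in NoBAL, 1.84 and 1.58 in EmptyBAL, 4.06 for hiHepD4, and 3.17 and 3.16 for hiHepD8.

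Of the other genes listed for phenylalanine and tyrosine breakdown, 7 were described, most of them in the making and recycling of tetrahydrobiopterin. Against Control 4 fell and 2 rose in NoBAL (24.2% and 25.2% of all genes), and 5 fell and 2 rose in EmptyBAL (29.3% and 24.4%). PCBD1 and QDPR, which recycle tetrahydrobiopterin, were at 652 ± 12.4 and 445 ± 9.42 FPKM in Control, 124 and 80.4, and 101 and 153, in NoBAL, and 372 to 373 and 350.4 to 351 in hiHepD8. GSTZ1, the isomerase between HGD and FAH, was at 322 ± 11.06 FPKM in Control, against 27.3 and 12.2 in NoBAL, 6.18 and 20.5 in EmptyBAL, 52.8 for hiHepD4, and 112.9 and 113 for hiHepD8. Of the 7 it had the largest fall in NoBAL (-4.07 ± 0.47, adjusted p = 0.00035), and its level in hiHepD8 was 2.85-fold below Control (adjusted p = 0.044), a call kept under only 2 of 12 other settings and lost without any 1 of the Control or hiHepD8 libraries (adjusted p = 0.1 to 0.18). Like FAH and GCDH, it had its highest values in Control. HPDL, a relative of HPD, rose in NoBAL but from 0.226 ± 0.167 to only 4.1 ± 0.497 FPKM. Among the 7, hiHepD8 was higher for 3 and lower for 1 against NoBAL, higher for 4 and lower for 1 against EmptyBAL, and higher for 2 and lower for 3 against Control. All genes were higher and lower at 22.5% and 24.8%, 22.6% and 17.6%, and 15.1% and 17.1% in these comparisons. Of the 5 calls against Control, most were lost without either hiHepD8 library, which leaves 1 in that group. Without Control replicate 2 or 3, 2 of the 7 were called, beside 21.7% and 21.5% of all genes. The replicate block also left 2, beside 19.2% of all genes. GSTZ1, HPDL and PCBD1 lost their calls with it (adjusted p = 0.13, 0.14 and 0.15). PTS, called in EmptyBAL against Control (adjusted p = 0.047), was lost without any 1 Control library, without EmptyBAL replicate 2 and with the block (adjusted p = 0.081 to 0.16).

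Of 14 other genes of lysine breakdown 13 could be tested, AADAT being listed at 0 in all libraries. In NoBAL 7 of 13 fell and 0 rose, and in EmptyBAL 10 fell and 0 rose against Control, beside the 24.2% and 29.3% of all genes that fell. ALDH7A1, the semialdehyde dehydrogenase downstream of AASS, was at 132 ± 4.86 FPKM in Control, against 10.1 and 18.4 in NoBAL, 12.8 and 13.7 in EmptyBAL, 27.7 for hiHepD4, and 136 and 134 for hiHepD8. The thiolase gene ACAT1 was at 238 ± 4.74 FPKM in Control and 37 and 29 in NoBAL, and it was at 278 and 281 in hiHepD8. Both thus lay near the Control level in hiHepD8 (log2 differences 0.03 ± 0.24 and 0.23 ± 0.34, adjusted p = 0.94 and 0.64), where AASS lay above it. DHTKD1, of a later mitochondrial step, was at 28.5 ± 0.978 FPKM in Control, 4.66 and 4.87 in NoBAL, and 23.7 and 22.9 in hiHepD8. Against NoBAL 4 of the 13 were higher in hiHepD8 and against EmptyBAL 7, with 0 lower in either, where 22.5% and 22.6% of all genes were higher. Without either hiHepD8 library some of these 7 calls were lost, in fits that leave 1 library in that group.

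ETFB and ETFDH, which pass on the electrons from GCDH, and PIPOX, of the pipecolate route, were called lower in hiHepD8 than in Control, 3 of 13 where 17.1% of all genes were lower. ETFB was at 118 ± 5.67 and 372 ± 1.42 FPKM in these groups (-1.65 ± 0.39, adjusted p = 0.015) and ETFDH at 33.4 ± 2.02 and 90.6 ± 2.17 (-1.42 ± 0.42, adjusted p = 0.037). PIPOX was at 1.58 ± 0.429 and 9.93 ± 2.01 FPKM (-2.08 ± 0.21, adjusted p = 0.00033). The ETFDH call was kept under only 3 of 12 other settings, and was lost without any 1 Control or hiHepD8 library (adjusted p = 0.092 to 0.18) and with the replicate block (adjusted p = 0.083). The ETFB call was lost without either hiHepD8 library (adjusted p = 0.085 and 0.1). In hiHepD4 ETFDH was at 93.5 FPKM, close to Control.

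In histidine breakdown the 3 tested genes after HAL fell in liver failure without a device, where HAL did not pass the test; the difference between them was not tested. UROC1, which acts on urocanate, was at 271 ± 10.7 FPKM in Control, against 19.9 and 26.9 in NoBAL, 36.2 and 15.4 in EmptyBAL, 33.3 for hiHepD4, and 286 and 293 for hiHepD8. AMDHD1 and FTCD, the later steps, had 9.2 and 40.8 FPKM in hiHepD4, against 55.3 ± 2.66 and 226 ± 13.9 in Control. All 3 fell in NoBAL and in EmptyBAL against Control, as did 24.2% and 29.3% of all genes. In hiHepD8 all 3 were higher than in NoBAL and than in EmptyBAL, as were 22.5% and 22.6% of all genes. On day 4 HAL was thus at 8.45 times its Control mean while the 3 later genes were below theirs. The fourth listed gene, HDC, which makes histamine instead, did not pass the filter on low values.

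With Control and hiHepD8 averaged to 1 library each, most calls of these 23 tested genes in NoBAL and EmptyBAL against Control were lost. In the comparisons of hiHepD8 all of their calls were lost. Over all genes most calls were lost as well.

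**Figure D4:**
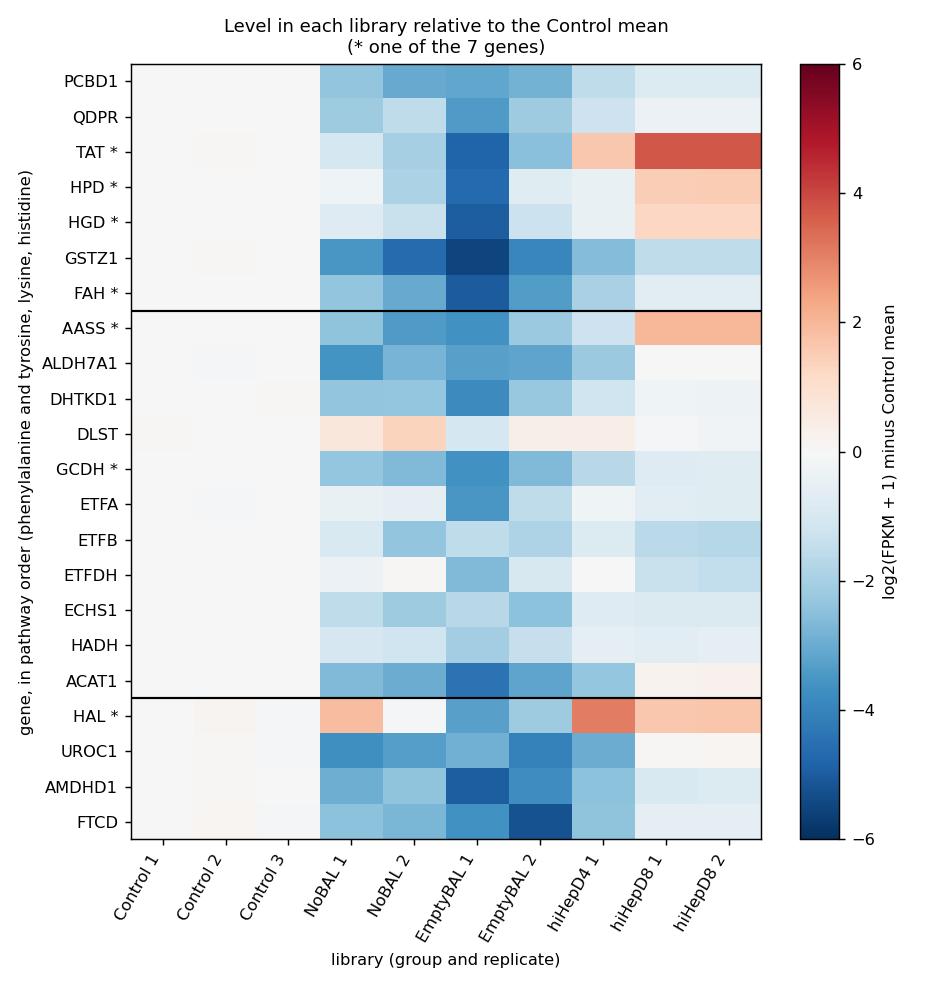
Level of the 7 genes (starred) and 15 further pathway genes in each library, as log2(FPKM + 1) minus the Control mean, in the order of the pathways. TAT, HPD, HGD, AASS and HAL are among those above Control in hiHepD8, and most of the genes are below it in NoBAL and EmptyBAL.

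The genes most alike in pattern were taken by Pearson correlation of log2(FPKM + 1) over the 10 libraries, among 4506 other named genes whose mean reached 10 FPKM. The libraries fall into few groups, so many genes correlate highly. AASS was most like GNMT (r = 0.994), which methylates glycine, CBS (0.981), which makes cystathionine, and ULK1 (0.981), an autophagy kinase. FAH was most like PTTG1IP (0.995), GRTP1 (0.993) and ALDH6A1 (0.993), an enzyme of valine breakdown. GCDH was most like OS9 (0.996), GSTZ1 (0.993) and CRYZ (0.993). HPD and HGD were among the 3 closest of each other (0.982), beside COQ9 and ESRRA for HPD and PPT2 and the urea cycle gene CPS1 for HGD. TAT was most like CCDC201 (0.989), at 16.9 to 21.2 FPKM in Control and 93.9 and 96.3 in hiHepD8. HAL was closest to AGFG2 (0.988), LIMK2 (0.957) and SCOC (0.952). Among the members themselves, FAH and GCDH correlated at 0.989 and HAL and GCDH at 0.434.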

How the data were processed

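Liver RNA of 10 libraries was sequenced as paired-end TruSeq libraries, per the labels' protocols. The authors deposited 1 table of FPKM. The submitters' processing notes list Cufflinks, HTSeq and HISAT2 and the genome builds mm10 and Sscrofa11.1, without roles. The file does not state its unit: FPKM was inferred from its header and its values. FPKM hold no counts, so depth is unknown and no counting intervals are given.

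A gene was tested if 2 or more libraries reached 1 FPKM (12180 genes, all 7 members among them), on log2(FPKM + 1). All groups were fitted in 1 limma model (3.58.1, R 4.3.3; mean-variance trend, two-sided, 5 residual degrees of freedom, no replicate block), with Benjamini-Hochberg adjustment over all genes within each of 6 comparisons. The fit was also run on simulated data with the same spread in all groups, which does not test it under the unequal spread seen here. Named genes are the members, the called genes of largest change in each list of other steps (up to 4 for a list and comparison, of which those described are a selection made with the values known), and the 3 genes most alike to each member. Settings tried were another pseudocount (0.1), no filter, upper-quartile scaling, other sets of libraries and other variance models. Plots used Python 3.11.15 and matplotlib 3.10.9. The members and lists were chosen with earlier results of these data known. One gene of the lists is not reported here, and counts over its list leave it out.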

Additional observations from a re-analysis of the deposited data

How the results depend on the processing

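The counts of members called in the 6 comparisons were recomputed under 11 or 12 other settings each. With Control and hiHepD8 averaged to 1 library each, limma called 0 in NoBAL against Control, 1 in EmptyBAL against Control, 0 in hiHepD8 against Control, 1 in hiHepD8 against NoBAL, and 0 in hiHepD8 against EmptyBAL and in EmptyBAL against NoBAL. Counts at an unadjusted p under 0.05 are left out, as the share of all genes at that threshold was not at hand. Over all genes these fits called 413, 689, 17, 297, 33 and 0, against 6021, 6540, 3923, 5764, 4895 and 4146. With only the groups compared in the fit, 5 members were called in NoBAL against Control, 7 in hiHepD8 against Control and 0 in EmptyBAL against NoBAL. Over all genes such fits called 6958 in NoBAL against Control, 8384 in hiHepD8 against Control, 2353 in hiHepD8 against EmptyBAL and 0 in EmptyBAL against NoBAL. EmptyBAL against NoBAL had 1 member called, HAL, with no filter, with upper-quartile scaling and with the replicate block. Of all genes, 16.3%, 28.3% and 20.5% were called under these settings.

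Leaving out any 1 Control library gave 3 members in NoBAL, 6 in EmptyBAL and 2 in hiHepD8 against Control. Of all genes, 38.0% to 38.5%, 42.5% to 43.1% and 21.5% to 21.7% were called in these fits. Leaving out a library of NoBAL, EmptyBAL or hiHepD8 leaves 1 in that group, so counts of genes called are left out here. The member calls lost in such fits are named with each comparison above. Of 286 values of called members under other settings 0 changed direction and 51 lost the call. Directions turned for uncalled members only: HAL in NoBAL against Control (-0.10 without NoBAL replicate 1) and in hiHepD8 against NoBAL (-0.24 without NoBAL replicate 2), and HPD in EmptyBAL against NoBAL (0.35 without EmptyBAL replicate 1). AASS in EmptyBAL against NoBAL turned to 0.19 with upper-quartile scaling, 0.48 without NoBAL replicate 1 and 0.68 without EmptyBAL replicate 1. For HAL the same comparisons gave 1.87 without NoBAL replicate 2 and 1.73 without NoBAL replicate 1, and in EmptyBAL against NoBAL HPD gave -3.57 and AASS -0.71 without EmptyBAL replicate 2. The cause was not tested.

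Control, NoBAL, EmptyBAL and hiHepD8 share replicate numbers. Deviations of same-numbered libraries from their group means correlated at -0.09 to 0.14. In groups with a pair of libraries the deviations mirror each other, and the labels do not say what the numbers stand for. Whether same-numbered libraries share an animal or a batch therefore cannot be told. The replicate block lowered the genes called over all to 2341 from 3923 in hiHepD8 against Control and to 2502 from 4146 in EmptyBAL against NoBAL. Upper-quartile scaling shifted the median of all genes by 0.17 to 0.21 in EmptyBAL and hiHepD8 against Control or NoBAL. It moved the share of higher genes among those called from 45.4% to 57.6% (EmptyBAL against Control), 46.9% to 62.4% (hiHepD8 against Control), 47.5% to 60.6% (hiHepD8 against NoBAL) and 37.0% to 65.5% (EmptyBAL against NoBAL).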

Other observations

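The genes that make tetrahydrobiopterin, an enzyme cofactor, differed in direction. GCH1, which starts the synthesis, was at 21.1 ± 0.118 FPKM in Control (SD, n = 3), 4.09 and 4.48 in NoBAL, 2.09 and 2.54 in EmptyBAL, 2.9 for hiHepD4, and 5.67 and 5.76 for hiHepD8. It fell in all 3 groups tested against Control (log2 changes -2.06 ± 0.13, -2.74 ± 0.13 and -1.72 ± 0.13, limma adjusted p = 2.53e-05, 7.07e-06 and 0.0001). PTS, the enzyme after it, rose in NoBAL, from 11.8 ± 1.19 FPKM to 30.6 and 46.4 (1.60 ± 0.22, adjusted p = 0.00078), and was higher in hiHepD8 than in Control (1.10 ± 0.22, adjusted p = 0.0073), a call lost without hiHepD8 replicate 1 or 2 (adjusted p = 0.053 and 0.071). SPR, the closing reductase, was at 79.9 ± 6.29 FPKM in Control, against 57.1 and 159 in NoBAL, 21.1 and 35.3 in EmptyBAL, 213 for hiHepD4, and 41.9 and 44.2 for hiHepD8. Its libraries of NoBAL lay on either side of Control, and it fell in EmptyBAL against Control (-1.51 ± 0.41, adjusted p = 0.016), a call lost without EmptyBAL replicate 1 (-1.15, adjusted p = 0.089). With Control and hiHepD8 averaged to 1 library each, the calls of PTS and SPR and those of GCH1 in NoBAL and hiHepD8 were lost.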
